A study of Homo sapiens with 18 samples.

Results

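The genes described here are the numbered zinc finger genes of human chromosome 19, measured in K562 cells, an established line from a chronic myelogenous leukemia. A gene was taken when its symbol was ZNF followed by digits only and its first listed chromosome was 19. The table holds 28395 genes, of which 476 have such a symbol and 239 of these lie on chromosome 19. Of the 239, 220 had a normalised read count of 10 or more in at least 3 libraries of a table and were kept. The other 19 stayed below that level: ZNF556, ZNF177, ZNF439, ZNF20, ZNF625, ZNF729, ZNF98, ZNF492, ZNF99, ZNF536, ZNF575, ZNF114, ZNF610, ZNF471, ZNF470, ZNF71, ZNF835, ZNF154 and ZNF132. The choice used levels in the libraries compared, so a gene could be kept through 1 line only. Of the 220 members, 21 were under 10 in every G-K562 library, 3 in every B-K562 library and 1 in every V-K562 library.

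The study asked what the transcriptional corepressor BASP1 does to gene expression and chromatin accessibility, and what part of this needs the lipid on its N terminus. V-K562 cells carry the empty vector, B-K562 cells express wild type BASP1, and G-K562 cells express BASP1-G2A, in which the glycine that takes the myristoyl group is replaced by alanine. All 3 are stably transfected K562 pools kept in G-418, with 1 pool for each construct, so an effect of the construct and a difference between pools cannot be told apart. RNA-seq and ATAC-seq, which measures accessible chromatin by transposase insertion, were each done on 3 biological replicates of each line, and p-values measure the spread between these replicate cultures. In bulk RNA, fewer cells that make a transcript and less transcript per cell cannot be told apart.

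Most zinc finger genes of chromosome 19 encode repressors in which a row of DNA-binding zinc fingers is joined to a KRAB domain. The KRAB domain recruits TRIM28, which brings in the histone methyltransferase SETDB1 and heterochromatin proteins, and many of the fingers recognise transposable elements. The genes arose by tandem duplication and lie in clusters, so neighbours resemble one another in sequence. The authors kept only uniquely mapping reads, so counts of close paralogs are uncertain, and counts of overlapping genes also are, since the strand setting of the counting is not given in the sources used here.

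RNA values below are the authors' normalised read counts, all on the scale of the table that holds G-K562 (B-K562 values were multiplied by 1.017, the ratio of the V-K562 columns of both tables), and values in the text follow the order of replicates 1, 2 and 3. BASP1 itself read 7, 5 and 7 in V-K562, 6965, 6730 and 6294 in B-K562, and 9323, 12538 and 8124 in G-K562, so V-K562 and the BASP1 lines matched their labels, while these counts do not tell wild type BASP1 from BASP1-G2A. The summed level of 7 erythroid markers (HBG1, HBG2, HBE1, HBZ, GATA1, TAL1 and KLF1) was 104446 to 118489 in the V-K562 libraries, 175331.6 to 181819.9 with wild type BASP1 and 37332 to 44519 with BASP1-G2A. All 7 were higher in B-K562 than in V-K562 and all 7 lower in G-K562, 5 of them at least 2-fold. This erythroid shift moved with every comparison below, and its part in the results was not tested. Of 4 markers of other cell types, MS4A1 was 0 in every library, CD3E and ALB stayed at 29 or less, and the epithelial gene EPCAM was present in all 3 lines at 1129 to 1731. The summed level of these 4 was 1440 to 1756 in V-K562 libraries, 1550.9 to 1653.6 with wild type BASP1 and 1161 to 1414 with BASP1-G2A.

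Zinc finger genes were mostly expressed at modest levels. The mean over the 3 V-K562 libraries ran from 4.33 to 5594.7 over the 220 members with a median of 298.83, and 22 members had a mean of 1000 or more. The median member was at 297.5 to 311 in the V-K562 libraries, 346.28 to 351.87 in the B-K562 libraries and 238.5 to 258 in the G-K562 libraries. The 3 lines thus did not overlap in this median, with B-K562 highest and G-K562 lowest. Per kb of exon, the highest members in V-K562 were ZNF146 at 1450.5 normalised counts per kb, ZNF581 at 1018.0, ZNF121 at 564.0, ZNF266 at 503.6 and ZNF428 at 502.9, against a median of 75.7 per kb over the members. ZNF146, a protein made almost only of zinc fingers and without a KRAB domain, read 5366, 5904 and 5514 in V-K562, 7410, 7503 and 7368 in B-K562, and 5245, 5330 and 5311 in G-K562. It was higher in B-K562 than in V-K562 by 0.41 on the log2 scale (limma, adjusted p = 2.9e-06), and its G-K562 and V-K562 values did not differ beyond their spread (-0.08, adjusted p = 0.23).

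Along the chromosome the numbered zinc finger genes fell into 9 clusters when a gap of more than 1 Mb between neighbouring genes was taken as a border (GRCh38 coordinates), and 7 of the members lay outside them. From the short arm to the end of the long arm these are ZNF554 to ZNF77 (2.82 to 2.95 Mb, 4 members), ZNF557 to ZNF846 (7.07 to 9.79 Mb, 14 members), ZNF653 to ZNF791 (11.48 to 12.63 Mb, 23 members) and ZNF101 to ZNF254 (19.67 to 24.13 Mb, 31 members). They go on with ZNF302 to ZNF792 (34.68 to 34.96 Mb, 5 members), ZNF565 to ZNF573 (36.18 to 37.78 Mb, 24 members), ZNF575 to ZNF296 (43.53 to 45.08 Mb, 23 members), ZNF175 to ZNF331 (51.57 to 53.58 Mb, 38 members) and ZNF628 to ZNF446 (55.48 to 58.49 Mb, 51 members). Other genes are interspersed, from 0 in the first cluster to 65 between ZNF557 and ZNF846.

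With wild type BASP1, more members rose than fell, mostly by little. Between B-K562 and V-K562, 101 of 220 members tested were higher and 59 lower at an adjusted p of 0.05 or less, with 38.6% higher and 37.2% lower among the 14958 genes tested. At least 2-fold changes were found for 12 members higher, against 6.46% of all genes, and 12 lower, against 14.1%. With 10 or more required in every library, 6 of 208 were at least 2-fold lower, against 10.1% of all genes, and with trimmed-mean rescaling 7 of 220 were at least 2-fold higher, against 5.65%. The median log2 difference was 0.15 for the members and 0.01 for all genes. Cluster medians ran from -0.64 for ZNF554 to ZNF77, where 4 of 4 members were lower, to 0.29 for ZNF628 to ZNF446, where 27 were higher and 11 lower. Zinc finger genes with numbered symbols on other chromosomes had a median of 0.14, with 94 higher and 55 lower of 212.

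The largest rises in B-K562 were in ZNF730, ZNF728, ZNF583, ZNF724 and ZNF480. ZNF730 (chr19:23116975-23147212) read 23, 13 and 22 in V-K562, 79.3, 94.6 and 60.0 in B-K562, and 5, 2 and 2 in G-K562, a rise of 1.99 ± 0.24 in B-K562 (log2, SE, adjusted p = 4.7e-06). Its neighbour ZNF728 read 66, 76 and 73 in V-K562, 263, 230 and 252 in B-K562, and 11, 14 and 8 in G-K562 (a rise of 1.78 in B-K562, adjusted p = 8.6e-09). ZNF724, next in the same stretch, read 16, 14 and 9 in V-K562, 47.8, 38.7 and 37.6 in B-K562, and 3, 2 and 5 in G-K562 (a rise of 1.60 in B-K562, adjusted p = 7.5e-05). In these 3 genes no library of one line overlapped with another line, with B-K562 on top and G-K562 at the bottom. ZNF480, in the cluster ZNF175 to ZNF331, read 714, 714 and 601 in V-K562, 1945, 1805 and 1778 in B-K562, and 925, 1016 and 959 in G-K562, and was higher by 1.45 in B-K562 (adjusted p = 8.9e-10) and by 0.52 in G-K562. ZNF583 read 85, 85 and 80 in V-K562, 279, 263 and 276 in B-K562, and 71, 61 and 68 in G-K562, a rise of 1.70 in B-K562 (adjusted p = 4.3e-09). Its G-K562 libraries were all below the V-K562 ones, but the difference of -0.32 missed the threshold (adjusted p = 0.066).

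The largest fall in B-K562 was in ZNF506 (chr19:19792711-19821751), which read 150, 154 and 162 in V-K562, 3.05, 3.05 and 1.02 in B-K562, and 1, 0 and 3 in G-K562. The gene was thus near 0 in both BASP1 lines, which overlapped with each other (-0.68, adjusted p = 0.19). The fitted difference from V-K562 was -5.60 ± 0.29 for B-K562 (adjusted p = 1.2e-09) and -6.29 ± 0.42 for G-K562 (adjusted p = 1.6e-07). Folds of genes this close to 0 depend on the pseudocount: with 5 in place of 1 they were -4.44 and -4.69. ZNF302, ZNF880, ZNF541 and ZNF404 followed, with log2 differences in B-K562 of -2.51, -2.47, -2.08 and -1.67, all from V-K562 levels of 115 or less. ZNF350, a repressor known as a partner of BRCA1, fell in B-K562 and not in G-K562. It read 213, 212 and 202 in V-K562, 96.6, 86.4 and 92.5 in B-K562, and 187, 223 and 242 in G-K562, with differences from V-K562 of -1.18 (adjusted p = 2.7e-07) and 0.05 (adjusted p = 0.73), and G-K562 was above B-K562 by 1.23 (adjusted p = 1.6e-07).

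With BASP1-G2A the picture was different, and falls prevailed. Between G-K562 and V-K562, 105 of 216 members tested were lower and 44 higher, with 33.3% lower and 33.5% higher among the 15271 genes tested. At least 2-fold, 61 members were lower and 2 higher, against 10.3% and 8.81% of all genes. Of the 61, 22 were at least 8-fold lower, beside 291 of the 15271 genes tested. With a pseudocount of 5 in place of 1, these 8-fold counts were 11 and 172. The median log2 difference was -0.27 for the members and 0.00 for all genes. Since 21 members had passed the filter only through other lines than G-K562, the counts were also taken over the 190 members with 10 or more in every library compared, of which 36 were at least 2-fold lower and 2 higher, against 7.35% and 6.73% of all genes under that filter. Under the same filter, 6 of the 190 members were at least 8-fold lower, beside 99 of 13724 genes. Numbered zinc finger genes on other chromosomes had 13 of 213 at least 2-fold lower, 10 higher and a median of 0.03.

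The counts also differed with the level of the genes. When the members tested were split into 3 equal sets by mean level over the V-K562 and G-K562 libraries, 42 of 72 in the lowest set (8.7 to 146.3), 17 of 72 in the middle set and 2 of 72 in the highest set (478.7 to 5445) were at least 2-fold lower in G-K562. Among all genes of the same levels these shares were 22.3%, 12.1% and 3.71%. A fall in G-K562 itself lowers that mean, and the lowest set holds members kept through V-K562 alone, so no order between the sets is read from these counts.

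**Figure D1:**
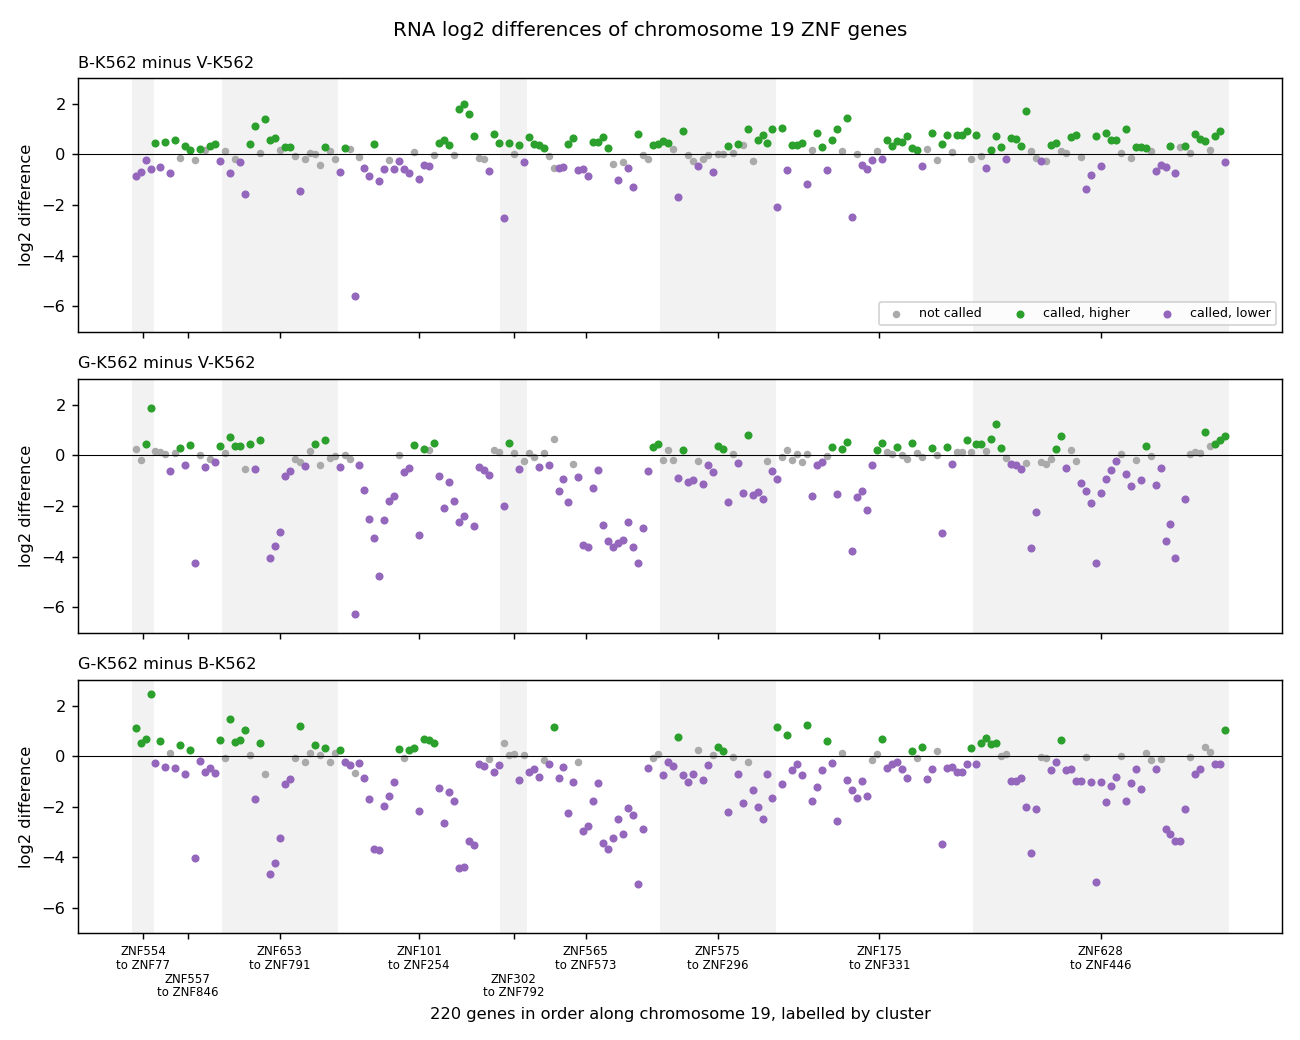
Log2 difference in RNA of each member (vertical axis) in gene order along chromosome 19 (horizontal axis, shading marks alternate clusters), in 3 panels for B-K562 minus V-K562, G-K562 minus V-K562 and G-K562 minus B-K562, with genes at an adjusted p of 0.05 or less in colour. Points far below 0 in G-K562 minus V-K562 crowd in the clusters ZNF101 to ZNF254 and ZNF565 to ZNF573, whose medians are -0.94 and -1.61, and in that panel only ZNF77 and ZNF784 lie above 1.

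By position, 2 clusters had the largest shares of members that fell. ZNF565 to ZNF573 had 19 of 24 members lower and 0 higher, 14 of them at least 2-fold lower, with a median of -1.61. ZNF101 to ZNF254 had 22 of 30 lower and 3 higher, 15 at least 2-fold lower, with a median of -0.94. Together they held 29 of the 61 members at least 2-fold lower, among 54 of the 216 members tested. The other 32 were among 162 members, beside 10.3% of all genes. In the V-K562 libraries the median member was at 158.5 to 178.5 in ZNF565 to ZNF573, the lowest of the clusters, and at 301 to 333 in ZNF101 to ZNF254. The part of level in these counts was not tested, and they were not repeated with 10 or more in every library. The clusters ZNF575 to ZNF296 (13 lower, 4 higher of 23, median -0.37) and ZNF628 to ZNF446 (23 lower, 12 higher of 50, median -0.26) were intermediate. ZNF302 to ZNF792 had 2 lower and 1 higher of 5 (median -0.23), ZNF653 to ZNF791 7 lower and 7 higher of 22 (median -0.12), ZNF557 to ZNF846 5 lower and 3 higher of 14 (median 0.03), and ZNF175 to ZNF331 11 lower and 10 higher of 37 (median 0.04), while ZNF554 to ZNF77 had 2 of 4 members higher and 0 lower (median 0.36). For ZNF565 to ZNF573 and ZNF101 to ZNF254 the medians in B-K562 against the same V-K562 libraries were -0.04 and -0.16.

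In the cluster ZNF565 to ZNF573 the falls in G-K562 were larger toward the telomeric end. The first 4 genes from the centromeric side, ZNF565, ZNF146, ZNF566 and ZNF260, had log2 differences of 0.07, -0.08, -0.45 and 0.10, of which only that of ZNF566 passed the test. The first 15 members as a whole ran from -3.60 to 0.65 with a median of -0.57. From ZNF527 on (chr19:37371048-37779636, 408.6 kb), the last 9 members in a row, ZNF527, ZNF569, ZNF570, ZNF793, ZNF540, ZNF571, ZNF781, ZNF607 and ZNF573, were all lower, by -4.26 to -2.62 with a median of -3.38. In B-K562 the same 9 genes had 3 higher, 3 lower and a median of -0.29. This stretch was chosen after its values were seen.

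**Figure D2:**
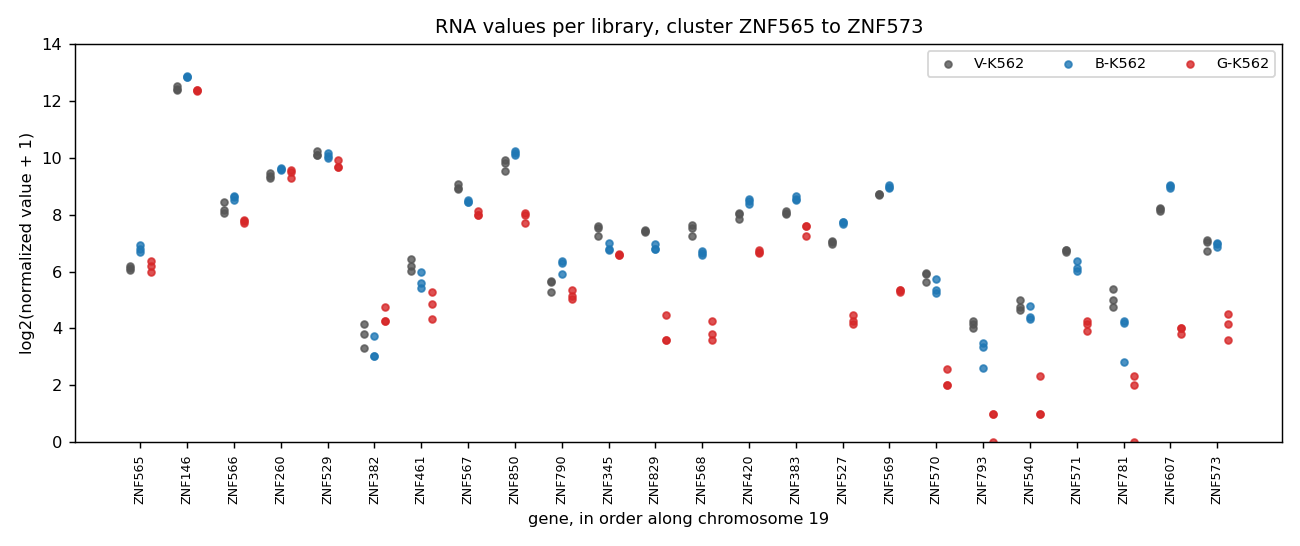
RNA level of the 24 members of the cluster ZNF565 to ZNF573 in each library, as log2(normalised read count + 1), in gene order and coloured by line. In the last 9 genes the 3 G-K562 points lie far below the V-K562 and B-K562 points, while ZNF146, at 5245 or more, is high in all 3 lines.

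ZNF607 (chr19:37696363-37719790, minus strand) had the largest fall of the cluster. It read 281, 296 and 298 in V-K562, 508.5, 488.1 and 521.7 in B-K562, and 15, 15 and 13 in G-K562. The 3 lines did not overlap: it was higher in B-K562 than in V-K562 by 0.79 ± 0.07 (adjusted p = 3.2e-07), lower in G-K562 by -4.26 ± 0.15 (adjusted p = 1.1e-09), and the direct difference between G-K562 and B-K562 was -5.05 ± 0.11 (adjusted p = 6.5e-14). ZNF569 read 422, 426 and 411 in V-K562, 529.8, 485.1 and 503.4 in B-K562, and 40, 40 and 38 in G-K562 (-3.38 in G-K562 against V-K562, adjusted p = 8.5e-10). ZNF568, whose mouse counterpart represses a placental promoter of Igf2, and ZNF829 lie head to head with overlapping starts. ZNF568 read 185, 152 and 200 in V-K562, 98.7, 94.6 and 103.7 in B-K562, and 11, 18 and 13 in G-K562. ZNF829 read 173, 165 and 177 in V-K562, 125.1, 109.8 and 108.8 in B-K562, and 11, 11 and 21 in G-K562. In both genes all libraries were ordered V-K562, B-K562, G-K562 from high to low, and the log2 differences of G-K562 from V-K562 were -3.60 and -3.55.

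Genes of other names inside this cluster also fell. Of 15 tested, 12 were lower in G-K562, 8 at least 2-fold, with 0 higher and a median of -1.50. Of all genes tested, 33.3% were lower and 10.3% at least 2-fold lower. The 15 are the zinc finger genes HKR1, ZFP14, ZFP30, ZFP82, ZNF585A and ZNF585B, and transcripts with LINC, LOC or antisense (AS1) names. Among those zinc finger genes only HKR1 was at least 2-fold lower, so the counts do not describe neighbours of other families. HKR1, also a zinc finger gene, read 309, 367 and 326 in V-K562 and 15, 25 and 11 in G-K562 (-4.29 ± 0.24, adjusted p = 4.2e-08), and the noncoding LINC00665 read 405, 390 and 391 in V-K562 and 41, 43 and 25 in G-K562 (-3.45 ± 0.19, adjusted p = 3e-08). ZFP30, a KRAB zinc finger gene in the stretch, fell less, from 217, 270 and 277 to 155, 164 and 194 (-0.57, adjusted p = 0.0022). These 3 were picked after their values were seen. Over all 9 clusters, the other genes had 55 lower and 36 higher of 141 with a median of -0.12, and genes of chromosome 19 outside the clusters had 219 lower and 329 higher of 831 with a median of 0.12.

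The cluster ZNF101 to ZNF254 holds the primate genes ZNF91 and ZNF93, repressors known for silencing the SVA and LINE-1 retrotransposons. ZNF91 (chr19:23357696-23395560, minus strand) read 185, 168 and 194 in V-K562, 301, 293.9 and 311.2 in B-K562, and 29, 25 and 23 in G-K562. It was higher in B-K562 (0.73, adjusted p = 6.6e-06) and lower in G-K562 (-2.79 ± 0.16, adjusted p = 4e-08) than in V-K562, with no overlap between the lines. ZNF93 read 826, 925 and 954 in V-K562, 648, 644 and 582 in B-K562, and 335, 357 and 342 in G-K562, and was lower in both, by -0.53 and -1.38. The order of the lines therefore differed between these 2 genes: B-K562 was highest for ZNF91 and in the middle for ZNF93.

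ZNF486 (chr19:20167214-20200490, plus strand) read 286, 272 and 301 in V-K562, 132.2, 142.4 and 135.3 in B-K562, and 9, 12 and 8 in G-K562. All libraries were ordered V-K562, B-K562, G-K562, and the differences from V-K562 were -1.06 in B-K562 (adjusted p = 2e-07) and -4.77 ± 0.18 in G-K562 (adjusted p = 2.2e-09). ZNF208 read 254, 264 and 235 in V-K562, 375.3 in each B-K562 library, and 62, 63 and 53 in G-K562, with differences of 0.58 and -2.06. ZNF43 read 607, 654 and 573 in V-K562, 838, 836 and 811.5 in B-K562, and 357, 313 and 364 in G-K562, with differences of 0.44 and -0.83. Both were thus highest in B-K562 and lowest in G-K562. Members of this cluster that were not lower in G-K562 were ZNF101, ZNF14, ZNF430, ZNF708, ZNF493, ZNF429, ZNF100 and ZNF254, at -0.15 to 0.48, of which ZNF708, ZNF493 and ZNF100 were higher.

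**Figure D3:**
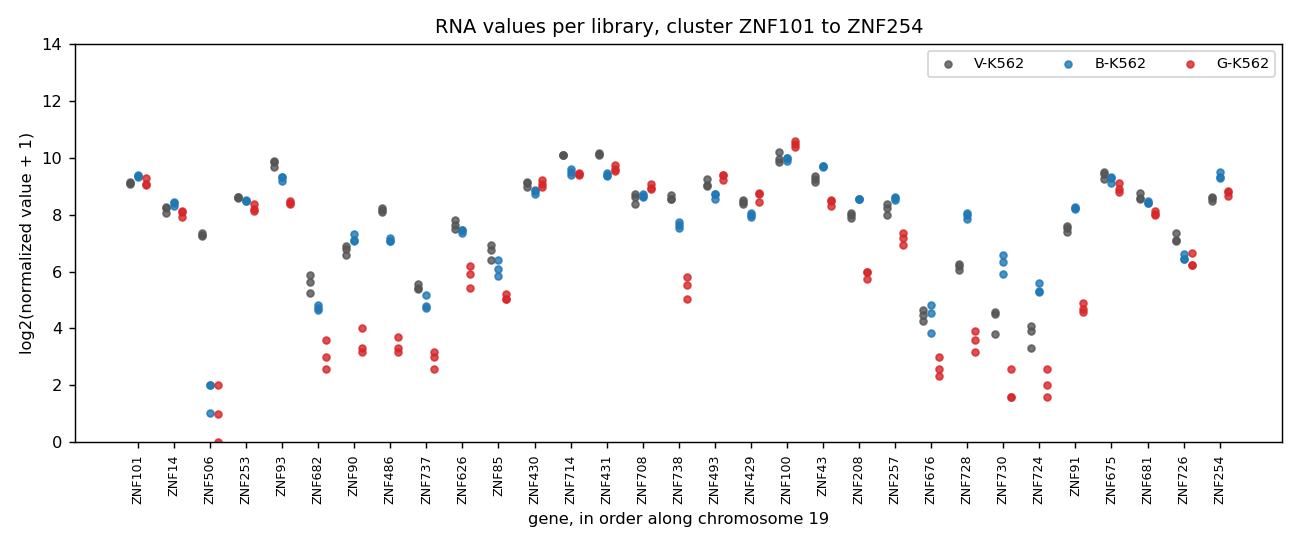
RNA level of the 31 members of the cluster ZNF101 to ZNF254 in each library, as log2(normalised read count + 1), in gene order and coloured by line. ZNF506 is near 0 in B-K562 and G-K562, ZNF486 is lowest in G-K562, and ZNF728, ZNF730, ZNF724 and ZNF91 are highest in B-K562 and lowest in G-K562.

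Elsewhere on the chromosome, single genes or short runs fell as far. ZNF549 (chr19:57527081-57540886), near the end of the long arm, read 75, 87 and 79 in V-K562, 157.6, 117.0 and 126.1 in B-K562, and 4, 3 and 3 in G-K562 (-4.24 ± 0.24 in G-K562 against V-K562, adjusted p = 5.3e-08). ZNF560 on the short arm read 58, 74 and 85 in V-K562, 62.0, 72.2 and 52.9 in B-K562, and 3, 6 and 1 in G-K562 (-4.24 ± 0.41, adjusted p = 3e-06). Of the 14 members tested in its cluster, 5 were lower, ZNF560 as the only one by at least 2-fold, and the cluster median was 0.03. ZNF433 read 216, 204 and 205 in V-K562, 288.8, 343.7 and 307.1 in B-K562, and 7, 15 and 14 in G-K562 (-4.07, adjusted p = 7.8e-08). ZNF878 and ZNF844, in the same cluster ZNF653 to ZNF791, also fell (-3.57 and -3.04, or -2.20 and -2.90 with a pseudocount of 5), and no other of the 22 members tested in that cluster was called at least 2-fold lower. ZNF433 and ZNF549 were higher in B-K562 than in V-K562, by 0.58 and 0.72, and there was no overlap between their libraries in the 3 lines.

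Only ZNF77 and ZNF784 were at least 2-fold higher in G-K562 than in V-K562. ZNF77 (chr19:2933218-2945279, minus strand) read 607, 606 and 593 in V-K562, 411, 418 and 382 in B-K562, and 2170, 2056 and 2485 in G-K562, so B-K562 was lowest and G-K562 highest. The differences from V-K562 were -0.58 in B-K562 (adjusted p = 4e-06) and 1.89 ± 0.08 in G-K562 (adjusted p = 3.5e-09). ZNF784 read 168, 147 and 138 in V-K562, 254, 254 and 233 in B-K562, and 361, 356 and 348 in G-K562, and was higher in both lines, by 0.71 and 1.23. ZNF497, ZNF235 and ZNF547 were the next highest in G-K562, by 0.92, 0.80 and 0.77. ZNF224, known as a cofactor of WT1 and picked after its values were seen, read 675, 685 and 708 in V-K562, 672, 708 and 723 in B-K562, and 854, 915 and 931 in G-K562, a rise of 0.38 in G-K562 (adjusted p = 0.00043).

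**Figure D4:**
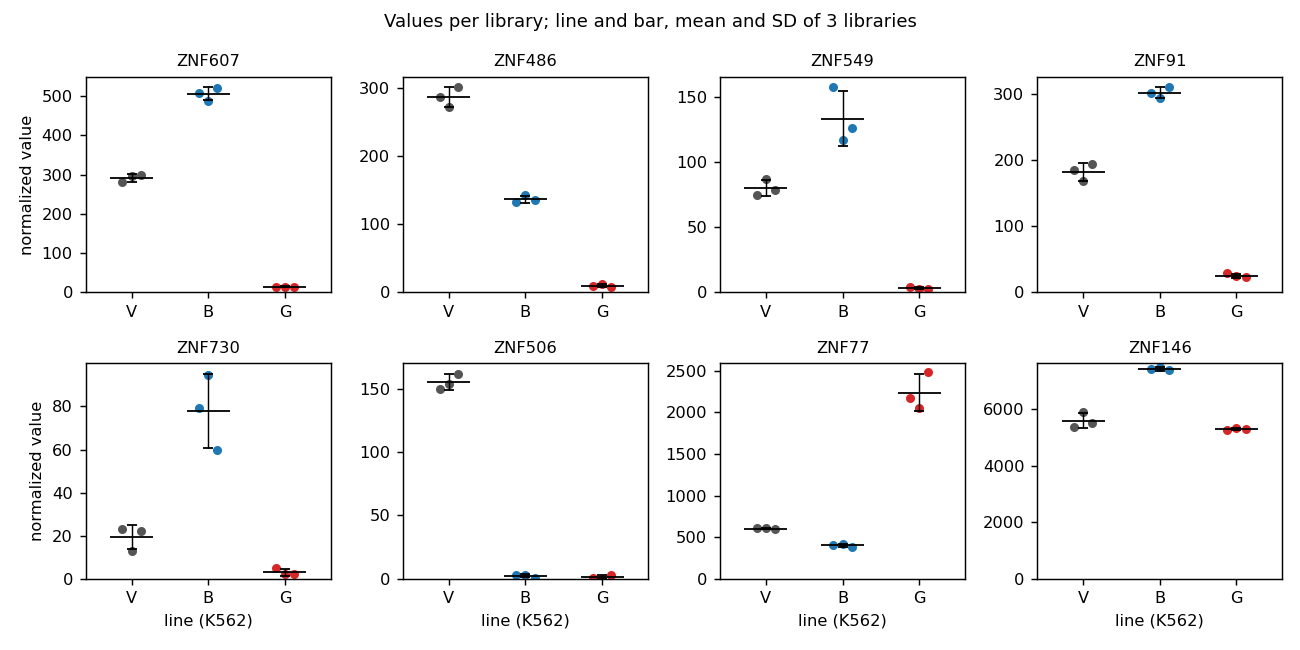
RNA level (normalised read count, linear axes from 0) of 8 members in the V, B and G lines, with a point for each library and a line and bar for the mean and SD of 3 libraries. ZNF607, ZNF549, ZNF91 and ZNF730 are highest in B-K562 and lowest in G-K562, ZNF486 and ZNF506 fall in both BASP1 lines, ZNF77 is highest in G-K562, and ZNF146 is highest in B-K562.

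Compared directly, G-K562 was below B-K562 for most members. Of 220 tested, 137 were lower and 41 higher, with 40.5% lower and 38.1% higher among the 15521 genes tested. At least 2-fold, 67 were lower and 9 higher, against 12.5% and 17.4% of all genes. This fit held all 9 RNA-seq libraries, V-K562 included. With 10 or more in each of the 9 libraries, 42 of 189 members were at least 2-fold lower and 7 higher, against 10.8% and 13% of all genes. The median was -0.48 for the members, -0.02 for all genes and -0.10 for the 214 numbered zinc finger genes of other chromosomes. The lowest cluster median was again that of ZNF565 to ZNF573 (-1.92, 21 lower and 1 higher), followed by ZNF101 to ZNF254 (-0.85, 22 lower and 6 higher), while ZNF554 to ZNF77 had 4 of 4 members higher (0.91). This comparison uses the same G-K562 libraries as the one with V-K562, so the 2 are not independent. The 9 members that were at least 2-fold above B-K562 in G-K562 were ZNF554, ZNF77, ZNF627, ZNF491, ZNF563, ZNF382, ZNF541, ZNF350 and ZNF446. The largest of these differences was that of ZNF77 (2.46 ± 0.07, adjusted p = 1.2e-12), and that of ZNF627 was 1.47, from B-K562 values of 424, 429 and 404 to G-K562 values of 1205, 1041 and 1254.

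Some members with a known role moved little. ZNF274, which recruits SETDB1 to the 3′ ends of zinc finger genes, read 2156, 2365 and 2385 in V-K562, 2347, 2402 and 2385 in B-K562, and 2355, 2261 and 2455 in G-K562. Its lines overlapped, with log2 differences of 0.05 (adjusted p = 0.40), 0.03 (adjusted p = 0.64) and -0.01 (adjusted p = 0.82) for B-K562 and G-K562 against V-K562 and G-K562 against B-K562. The imprinted gene ZNF331 read 326, 345 and 485 in V-K562, 315, 365 and 333 in B-K562, and 376, 405 and 489 in G-K562, and V-K562 overlapped with both other lines, while G-K562 was above B-K562 by 0.32 (adjusted p = 0.045), a call that was lost without B-K562 replicate 1 or 3, without G-K562 replicate 3 and with no filter on low values. ZNF649 was higher in B-K562 (0.37, adjusted p = 0.00074) and read 290, 318 and 303 in V-K562 against 319, 315 and 319 in G-K562 (0.07, adjusted p = 0.52). ZNF428 was higher in B-K562 by 0.45, and the G-K562 difference of 0.23 missed the threshold (adjusted p = 0.053) and passed it under other fits, such as 1 fit of all 9 libraries. ZNF471 was not kept. ZNF382 was low in every library, at 17, 13 and 9 in V-K562, 7.1, 7.1 and 12.2 in B-K562, and 18, 18 and 26 in G-K562, and was higher in G-K562 than B-K562 by 1.16 (adjusted p = 0.0044).

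The partners that KRAB zinc finger proteins work through were described from a list of 25 cofactors, all tested. In G-K562 against V-K562, 10 were lower and 9 higher, beside 33.3% and 33.5% of all genes, with 0 changed 2-fold and a median of -0.02. In B-K562 against V-K562, 18 were higher and 5 lower, beside 38.6% and 37.2% of all genes, with a median of 0.44. TRIM28, the corepressor that binds the KRAB domain, read 20193, 21563 and 21592 in V-K562, 30343, 30597 and 29688 in B-K562, and 19914, 18348 and 19192 in G-K562. It was higher in B-K562 (0.52, adjusted p = 3.1e-07), and lower in G-K562 by little (-0.14, adjusted p = 0.049). SETDB1 read 2005, 2126 and 2038 in V-K562, 1520, 1607 and 1547 in B-K562, and 1847, 1708 and 1825 in G-K562, and was lower in both (-0.40 and -0.20, adjusted p = 6.6e-06 and 0.012). UHRF1, a reader of hemimethylated DNA, was the only cofactor at least 2-fold higher in B-K562 than in V-K562, at 884, 959 and 818 in V-K562 and 2201, 2269 and 2194 in B-K562 (1.33). SUV39H2, a histone H3 lysine 9 methyltransferase, was the only one at least 2-fold lower in G-K562 than in B-K562 (-1.32). Of 22 zinc finger genes of chromosome 19 with other names, 14 could be tested. In G-K562 against V-K562, 5 of them were lower, 2 at least 2-fold, and 6 were higher, 1 at least 2-fold, with a median of 0.07, beside the same 33.3% and 33.5% and, for 2-fold changes, 10.3% and 8.81% of all genes. ZSCAN18 and the erythroid factor KLF1 fell (-2.12 and -1.48) and KLF2 rose (1.04). The others lower were ZFP14, ZFP30 and ZIK1, and the others higher were ZFP36, ZSCAN22, ZBTB7A, ZBTB45 and KLF16. The list mixes families of zinc finger genes, so its median does not stand for close relatives of the members.

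Accessibility at the starts of these genes was read from ATAC-seq peaks. The authors sampled the libraries down to the same number of tags, called peaks in each library, and gave the tags at the summit of each peak. Of the 220 members, 189 had a peak of some library within 500 bp of their start, in 184 merged regions, since head-to-head genes share 1 region, and 31 had none. The start is the outermost base of the gene in the RNA data. For some of the 31 the nearest RefSeq promoter lay elsewhere, 22211 bp away for ZNF627 and 8073 bp for ZNF560. A missing region therefore does not show a closed promoter. A peak was present in all 3 libraries for 177 members in V-K562, 175 in B-K562 and 148 in G-K562. It was in none of the libraries for 3 in V-K562, 7 in B-K562 and 30 in G-K562. With a peak in all 3 V-K562 libraries, 21 members had none in G-K562 and 3 had none in B-K562. No such counts over all gene starts are given here, so whether these losses are particular to the members was not tested. Libraries also differed in the number of peaks called. Those of V-K562 held 53862, 55570 and 55393 peaks, and those of B-K562 held 48905, 47111 and 47550. The G-K562 libraries held 51199, 48408 and 49969.

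For the test, a trimmed-mean factor was applied to the tags that puts the median of all regions near 0, and a library without a peak, or with fewer tags than the floor, was set to a floor of 17 tags, so differences of such regions depend on the floor. Between G-K562 and V-K562, 52 of 174 start regions of members were lower and 26 higher, with 25.8% lower and 16.2% higher among the 54213 regions tested. At least 2-fold, 25 were lower and 0 higher, against 13.0% and 2.92% of all regions. Of the start regions of all genes, 5.43% were lower and 38.6% higher beside 29.9% and 14.9% of the members' regions. At least 2-fold, 1.93% of all gene starts were lower and 3.21% higher. The direction of the split depends on the scaling: with the equal numbers of tags left as they are, 31 member regions were lower and 67 higher, with 18 at least 2-fold lower and 3 higher, while 2.73% of all gene starts were lower and 69% higher. That scaling moved the median of all regions from -0.09 to 0.19.

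Between B-K562 and V-K562, 9 of 181 start regions were lower and 27 higher, with 16.5% lower and 8.69% higher among all regions. At least 2-fold, 1 was lower and 1 higher, against 6.12% and 1.53%. Of all gene starts, 3.17% were lower and 18.9% higher, close to the members' 4.97% and 14.9%. At least 2-fold, 1.05% of all gene starts were lower and 0.951% higher. With equal tags only, 7 member regions were lower and 53 higher. Between G-K562 and B-K562, 55 of 175 were lower and 10 higher, with 20.6% and 16.9% among all regions, and 27 were at least 2-fold lower and 1 higher, against 10.9% and 5.56%. Of all gene starts, 9.62% were lower and 16% higher in this comparison, with 2.19% at least 2-fold lower and 2.29% higher. With equal tags only, 40 member regions were lower and 32 higher, so this split too rests on the scaling, while the count at least 2-fold lower was 24.

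By cluster, ZNF565 to ZNF573 had 11 of 17 start regions lower and 1 higher in G-K562 against V-K562, with a median of -0.58. ZNF101 to ZNF254 had 14 of 27 lower and 0 higher, with a median of -0.42, and ZNF653 to ZNF791 had 6 of 17 lower and 3 higher. ZNF557 to ZNF846 had 0 of 13 lower and 2 higher, and ZNF175 to ZNF331 had 4 of 29 lower and 5 higher.

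Among the genes with the largest RNA falls, start regions were largely without a peak in G-K562. The start region of ZNF607 held 47, 55 and 72 tags in V-K562, 56, 72 and 59 in B-K562, and in G-K562 16 in 1 library and no peak in the others (-1.86 ± 0.20, adjusted p = 0.00051). That of ZNF486 held 46, 39 and 55 tags in V-K562, 32, 35 and 38 in B-K562, and no peak in G-K562 (-1.56 ± 0.18, adjusted p = 0.00071). The region shared by ZNF568 and ZNF829 held 57, 46 and 48 tags in V-K562, 28, 26 and 19 in B-K562, and no peak in G-K562, in the same order as their RNA (-1.18 in B-K562, adjusted p = 0.0087, and -1.68 in G-K562, adjusted p = 0.00045). The region of ZNF506 held 34, 36 and 28 tags in V-K562 and no peak in either BASP1 line (-0.97, adjusted p = 0.0054, and -1.06, adjusted p = 0.0015). That of ZNF91 held 48, 34 and 36 tags in V-K562, 104, 83 and 59 in B-K562, and in G-K562 18 in 1 library and no peak in the others. It was higher in B-K562 (0.87, adjusted p = 0.03) and lower in G-K562 (-1.32, adjusted p = 0.0014), as its RNA was. ZNF93, whose RNA fell less, kept a peak in every library, with 81, 109 and 121 tags in V-K562, 94, 81 and 85 in B-K562, and 36, 38 and 48 in G-K562 (-1.66, adjusted p = 0.00059).

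Single regions were higher in B-K562. The region of ZNF730 had no peak in V-K562 or G-K562 and 42, 33 and 35 tags in B-K562 (0.98, adjusted p = 0.0048). That of ZNF724 held 21, 28 and 28 tags in V-K562, 85, 93 and 84 in B-K562, and no peak in G-K562 (1.59, adjusted p = 0.0021), the single member region at least 2-fold higher in B-K562. That of ZNF350 held 25, 37 and 30 tags in V-K562, in B-K562 17 in 1 library and no peak in the others, and 48, 26 and 54 in G-K562. RNA and region did not always move together: ZNF77, with its large rise in RNA, held 145, 135 and 119 tags in V-K562 and 179, 155 and 153 in G-K562 (-0.06 after scaling, adjusted p = 0.72), and the region of ZNF480 did not differ beyond its spread in B-K562 (-0.28, adjusted p = 0.40).

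**Figure D5:**
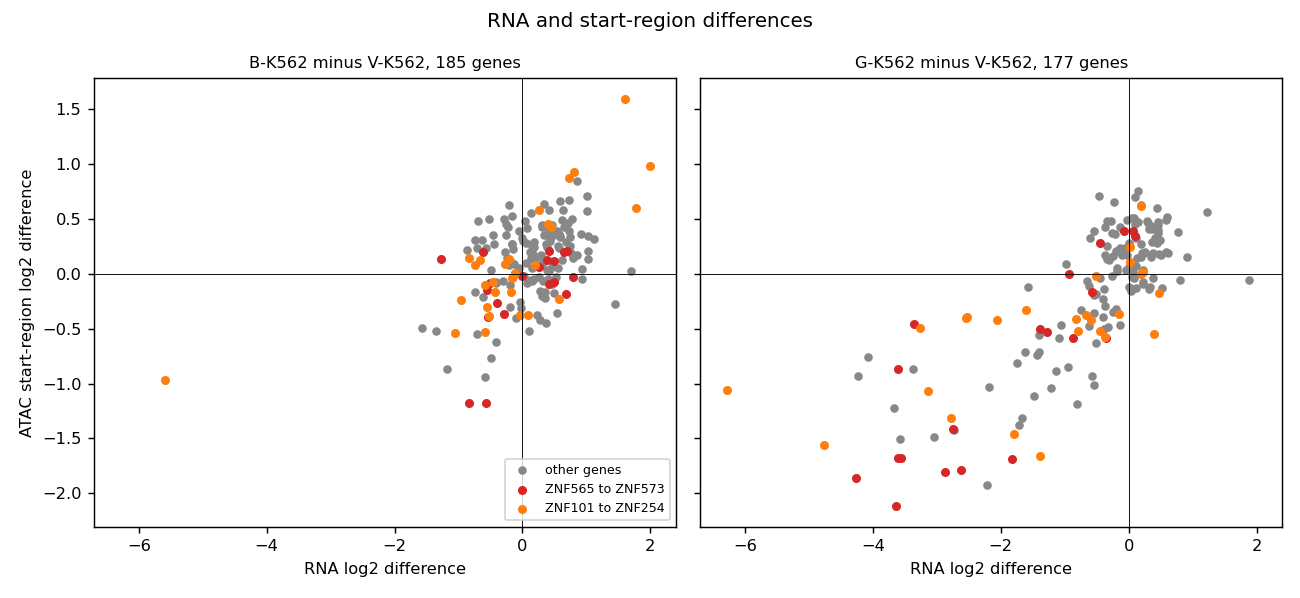
Log2 difference in RNA (horizontal axis) and of the ATAC-seq region at the gene start (vertical axis) for each member tested in both, for B-K562 minus V-K562 and G-K562 minus V-K562, with 2 clusters in colour. In G-K562 members with large RNA falls lie at lower accessibility (Pearson 0.78 over 177 members), and in B-K562 the points lie closer to 0 (Pearson 0.50 over 185 members).

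The 22 members at least 8-fold lower in RNA in G-K562 than in V-K562 include genes under 10 in every G-K562 library, such as ZNF506 and ZNF878. Of the 22, 19 had a start region. Of these, 16 had a peak in all V-K562 libraries and 16 had none in G-K562, and 0 had a peak in all 3 G-K562 libraries. Counted as distinct regions, since head-to-head genes share 1, 14 of the 15 tested were lower, with a median of -1.07. Of the 61 members at least 2-fold lower, 52 had a region, and 39 of the 44 distinct regions tested were lower. Across members, the log2 differences of RNA and start region had a Pearson correlation of 0.78 and a Spearman correlation of 0.75 in G-K562 against V-K562 (177 members), and of 0.50 and 0.41 in B-K562 against V-K562 (185 members). These are descriptions over genes that share the libraries and, in part, regions, and genes are not independent replicates.

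Promoter sequences of 5 genes of the 2 clusters with the largest falls are shown, because their start regions moved with, or as in ZNF565 without, their RNA. They are the 250 bases before the RefSeq start (GRCh38.p14), read 5′ to 3′ on the strand of the gene, with CG dinucleotides in capitals. ZNF607 (chr19:37719762-37720011, minus strand, 10 CG) and ZNF486 (chr19:20166964-20167213, plus strand, 7 CG) had less RNA and less accessible starts in G-K562, and ZNF91 (chr19:23395472-23395721, minus strand, 7 CG) had less of both in G-K562 and more in B-K562. ZNF568 (chr19:36916082-36916331, plus strand, 18 CG) lies in the region it shares with ZNF829. ZNF565 (chr19:36215085-36215334, minus strand, 24 CG), whose RNA did not differ between G-K562 and V-K562 beyond its spread (0.07), lies in the region it shares with ZNF146. That region was higher in G-K562 (0.39, adjusted p = 0.0098). Over all gene starts the median in this comparison was 0.31 and 38.6% were higher, so this rise is not particular to ZNF565.
ZNF607: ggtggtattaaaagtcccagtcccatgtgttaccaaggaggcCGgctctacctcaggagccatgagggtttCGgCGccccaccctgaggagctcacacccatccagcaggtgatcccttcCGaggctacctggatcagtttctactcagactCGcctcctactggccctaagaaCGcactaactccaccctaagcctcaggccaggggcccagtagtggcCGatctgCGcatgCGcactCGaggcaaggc
ZNF486: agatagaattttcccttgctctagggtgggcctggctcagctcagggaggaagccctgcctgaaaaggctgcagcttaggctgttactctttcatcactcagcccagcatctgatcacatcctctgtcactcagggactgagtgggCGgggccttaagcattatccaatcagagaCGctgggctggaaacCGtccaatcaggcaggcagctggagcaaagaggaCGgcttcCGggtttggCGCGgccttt
ZNF91: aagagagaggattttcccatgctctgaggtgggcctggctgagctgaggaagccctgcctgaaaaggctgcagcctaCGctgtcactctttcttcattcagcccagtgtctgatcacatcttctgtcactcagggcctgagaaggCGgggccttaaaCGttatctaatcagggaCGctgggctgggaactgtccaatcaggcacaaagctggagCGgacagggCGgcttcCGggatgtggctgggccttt
ZNF568: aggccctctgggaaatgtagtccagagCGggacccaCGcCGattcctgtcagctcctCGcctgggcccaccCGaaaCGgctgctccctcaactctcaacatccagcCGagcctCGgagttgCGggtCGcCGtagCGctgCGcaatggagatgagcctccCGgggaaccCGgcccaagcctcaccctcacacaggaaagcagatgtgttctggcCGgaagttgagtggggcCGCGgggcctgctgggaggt
ZNF565: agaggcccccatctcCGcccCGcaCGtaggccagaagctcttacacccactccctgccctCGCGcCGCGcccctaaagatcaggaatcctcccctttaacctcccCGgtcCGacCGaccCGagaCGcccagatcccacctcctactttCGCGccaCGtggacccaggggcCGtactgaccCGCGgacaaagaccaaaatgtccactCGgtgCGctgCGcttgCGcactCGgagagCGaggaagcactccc

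Over all members, 158 had a RefSeq promoter that begins within 500 bp of the start in the table. These 158 had a median of 16 CG dinucleotides in the 250 bases, against 21 over the 9507 genes tested with such a promoter, 19 over 150 numbered zinc finger genes of other chromosomes and 11 over all 35116 promoters. The median was 13 for the 45 members that fell at least 2-fold in G-K562 from V-K562, 13 for the 15 at least 8-fold lower, 17 for 80 members within 0.5 on the log2 scale, and 16 for 28 members that were higher. Letters of known promoter motifs were counted on both strands. CCGGAA, the core bound by ETS factors, was in 36.1% of member promoters, 25.1% of those of all genes tested and 14.5% of all promoters. CCAAT was in 51.3%, 35.5% and 32%, GGGCGG, the core bound by SP factors, in 67.1%, 67% and 42.6%, and TATAAA in 3.16%, 5.77% and 10.7%. Such a match is a description of the letters and not a binding site.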

How the data were processed

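RNA-seq values are the normalised read counts the authors deposited, a signal per gene and library. Per the study's methods, paired reads were mapped to GRCh38 with STAR, duplicates were removed, and uniquely mapping reads with at most 2 mismatches were assigned to RefSeq genes with Subread. The authors divided the counts by DESeq2 size factors and rounded them, so totals of 32074895 to 33229588 per library do not show sequencing depth, which is unknown here. ATAC-seq values are the summit tags of MACS2 peaks that the authors deposited for each library after sampling to equal tags (47111 to 55570 peaks per library). Columns of the authors' own fold changes and p-values were not used.

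Values were tested as log2(value + 1) with limma 3.58.1 (moderated test with a mean-variance trend, R 4.3.3) in each pair of lines, on genes with 10 or more in at least 3 libraries. The RNA fit of G-K562 against B-K562 held all 9 libraries, so V-K562 entered its filter and its variance. P-values were two-sided and Benjamini-Hochberg adjusted over all genes or regions tested, and groups were called at 0.05 or less. Peaks were merged over libraries into 85549 regions, tested where at least 3 of the 6 libraries had a peak, and matched to starts within 500 bp. Trimmed-mean factors left out 30% of log ratios and 5% of levels at each end. The RNA fits were checked on simulated data.

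The members and gene lists were chosen with earlier results of these data known. Named genes were the 5 largest rises and falls of each comparison (adjusted p of 0.05 or less, no overlap, mean of 20 or more in the higher group), the 5 highest per kb in V-K562, 12 members with a textbook role, cofactors with a 2-fold call, and members with a start region called at 2-fold. Alternatives were another scaling, filter, pseudocount, floor, start window and cluster gap, a replicate block, 1 fit of all 9 libraries, and leaving out each library in turn. Some marker genes are not reported here and were left out of the marker sums.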

Additional observations from a re-analysis of the deposited data

Results flagged for a closer look

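Among the named members, 20 were called in opposite directions in the 2 BASP1 lines against the shared V-K562 libraries and differed by at least 2-fold when the lines were compared directly. These 20 were picked for these calls, so the values are a description. Over all 220 members, 42 were called higher in B-K562 and lower in G-K562, and 8 lower in B-K562 and higher in G-K562. Both lines were called lower for 35 members and higher for 24. Opposite calls over all genes are not given here, so whether they are particular to the members was not tested. The log2 differences of G-K562 from B-K562 were -5.05 for ZNF607, -4.95 for ZNF549, -4.66 for ZNF433, -4.41 for ZNF728, -4.36 for ZNF730, -4.20 for ZNF878, -3.67 for ZNF90, -3.51 for ZNF91, -3.42 for ZNF527 and -3.07 for ZNF256. They were -2.64 for ZNF208, -2.49 for ZNF229, -2.24 for ZNF850, -1.79 for ZNF416, -1.67 for ZNF69, -1.27 for ZNF43, -1.16 for ZNF530 and -1.09 for ZNF788. In ZNF77 and ZNF627 G-K562 was the higher line, by 2.46 and 1.47. The RNA call of ZNF69 in G-K562 against V-K562 was lost without V-K562 replicate 1 (-0.46) or G-K562 replicate 1 (-0.45).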

How the results depend on the processing

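Of the repeats of the 172 named member results under the alternatives, 1836 kept direction and side of the threshold, 18 kept only the direction and lost the call, 10 gained a call and 6 reversed. The reversals were of differences near 0. With trimmed-mean rescaling of RNA, ZNF274 was at -0.0039 for B-K562 against V-K562 and at 0.0489 for G-K562 against B-K562. Leaving out 1 library in turn, ZNF274 ran from -0.0118 (without V-K562 replicate 1) to 0.0643 for G-K562 against V-K562 and from -0.0433 to 0.016 (without G-K562 replicate 2) for G-K562 against B-K562, ZNF331 from -0.279 (without V-K562 replicate 1, where it gained a call) to 0.0045 (without V-K562 replicate 3) for B-K562 against V-K562, and ZNF350 from -0.0329 (without G-K562 replicate 3) to 0.1522 for G-K562 against V-K562. The ZNF331 difference between G-K562 and B-K562 lost its call without B-K562 replicate 1 or 3 (0.27 and 0.31), without G-K562 replicate 3 (0.21) or with no filter on low values (0.32), and that of ZNF428 between G-K562 and V-K562 gained one without V-K562 replicate 1 (0.32) or G-K562 replicate 3 (0.29), with all 9 libraries in 1 fit (0.23) and with the replicate block (0.23).

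Requiring 10 or more in every library, RNA counts at least 2-fold lower were 6 in B-K562 and 36 in G-K562 against V-K562 and 42 in G-K562 against B-K562, fewer because members near 0 in a line are then left out, and with trimmed-mean rescaling 7 members were at least 2-fold higher in B-K562. With gaps over 2 Mb as cluster borders, the lowest cluster median was -1.28 for G-K562 against V-K562 and -1.02 against B-K562. For start regions, equal tags only gave for B-K562 against V-K562 53 higher and 4 at least 2-fold higher, for G-K562 against V-K562 31 lower, 67 higher and 3 at least 2-fold higher, and for G-K562 against B-K562 32 higher. With a peak in every library, which leaves out regions without one, 5 were lower in B-K562, 32 lower and 11 at least 2-fold lower in G-K562 against V-K562, and 11 at least 2-fold lower and 0 higher in G-K562 against B-K562. With a floor of 8.5 tags, 6 were at least 2-fold lower and 4 higher in B-K562 and 39 lower in G-K562 against V-K562.

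Leaving out 1 library in turn, RNA counts lower and higher were 51 to 60 and 92 to 100 in B-K562 and 84 to 107 and 37 to 42 in G-K562 against V-K562, and 132 to 137 and 38 to 43 in G-K562 against B-K562. Start regions moved more. For B-K562 against V-K562, 4 to 10 were lower, 12 to 22 higher, 1 to 2 at least 2-fold lower and 1 to 4 at least 2-fold higher. For G-K562 against V-K562, 25 to 41 were lower and 16 to 24 at least 2-fold lower. For G-K562 against B-K562, 28 to 48 were lower, 2 to 12 higher, 17 to 29 at least 2-fold lower and 0 to 1 at least 2-fold higher. Fewer regions reach a peak in at least 3 libraries when 1 is left out.

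With the replicate number as a block, RNA counts lower and higher were 59 and 104 in B-K562 and 104 and 42 in G-K562 against V-K562, and 138 and 41 in G-K562 against B-K562, and start regions 8 and 27, 49 and 27, and 54 and 9. The correlation of same-numbered libraries' deviations was -0.105 to 0.168 for RNA, with 1 of 9 over 0.1, and 0.00704 to 0.122 for ATAC-seq, with 2 of 9. The main fits treated the libraries as unpaired. These values cannot show whether same-numbered libraries shared a culture or a preparation.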
